A study of Mus musculus with 2 samples.

Results

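The genes described here are 9 collagen genes, Col1a1, Col1a2, Col3a1, Col5a1, Col5a2, Col5a3, Col6a2, Col11a1 and Col12a1, chosen by name from the 5238 genes that the 3 cluster tables list. The tables come from single-cell RNA sequencing of stroma of mouse salivary gland organoids, tissue-like aggregates grown in culture. One library held control organoids without FGF2, and the other held organoids with FGF2, a fibroblast growth factor. The mice of both groups were of the CD-1 strain, and both carried the same age label, embryonic day 16 with 7 added. The labels carry no allele or other agent, and the meaning of the added 7, the dose and timing of FGF2 and the number of animals are unstated in what was used here. Per the labels, 5023 control cells and 10107 FGF2 cells were captured. The questions are in which stromal subpopulations these collagens were detected, and how their detection differed between organoids without and with FGF2. Each group is 1 library, so differences between them come without a replicate check or a test.

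Fibrillar collagens are rods of 3 wound chains that assemble outside the cell into the fibrils of connective tissue. Collagen I, with the chains of Col1a1 and Col1a2, makes up the bulk of most such fibrils, and collagen III, the product of Col3a1, assembles with it. Collagens V (Col5a1, Col5a2, Col5a3) and XI (Col11a1) start fibrils and limit their width. Collagen XII (Col12a1) sits on the surface of fibrils, and collagen VI (Col6a2 with Col6a1 and Col6a3) forms a separate beaded network around cells. In the developing salivary gland, collagen fibrils gather in the clefts of the branching epithelium, and mesenchymal cells are their main source.

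All 9 genes were listed in both library tables, with 77 entries in the control table and 48 in the FGF2 table. The integrated table, built from both libraries together, listed 7 of them with 51 entries. An entry is a comparison, made by the authors, of 1 cluster with all other cells of its table. It gives the share of cells with a count on either side, and a log ratio of the averages. Each gene's share over a whole library was recovered from these entries. A cluster's level is given below as its average over the average of its library, both with the offset of 1 that the authors' ratios carry. This level compares clusters within a gene and a library, not genes or libraries.

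Fibroblast markers were widely detected, as the stroma label would have it. Pdgfra, which encodes a growth factor receptor typical of fibroblasts, had a count in 78.3% of the control and 84.2% of the FGF2 cells. Of the same marker list, Dcn, Lum and Thy1 were also higher with FGF2, and Vim was nearly equal. Pdgfrb went the other way, at 82.0% and 57.6%. Clusters named non-stromal, or led by S100a9 and S100a8, made up 5.85% and 4.47% of the cells. Control clusters 4 and 9 and FGF2 clusters 10 and 13, chosen after the data were seen, stood apart because most genes listed for them had low shares. They held 13.4% of the control and 4.92% of the FGF2 cells. The depth per cell is unknown, so counting intervals are not given.

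Detection of 7 of the 9 collagen genes was at least 1.5-fold lower in the FGF2 library than in the control library, and none was higher. Of the 2323 genes listed in both library tables, 15.1% were lower by this rule and 7.53% were higher. The median log2 ratio of the 9 genes was -1.06, against -0.08 over all genes compared. At a 2-fold rule, 5 of the 9 were lower, against 7.49% of all genes. With 1.5-fold as the rule, 8 of the 9 genes could not have been called higher, because their control shares left no room for it. The 2 chains of collagen I were the genes within the rule.

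**Figure D1:**
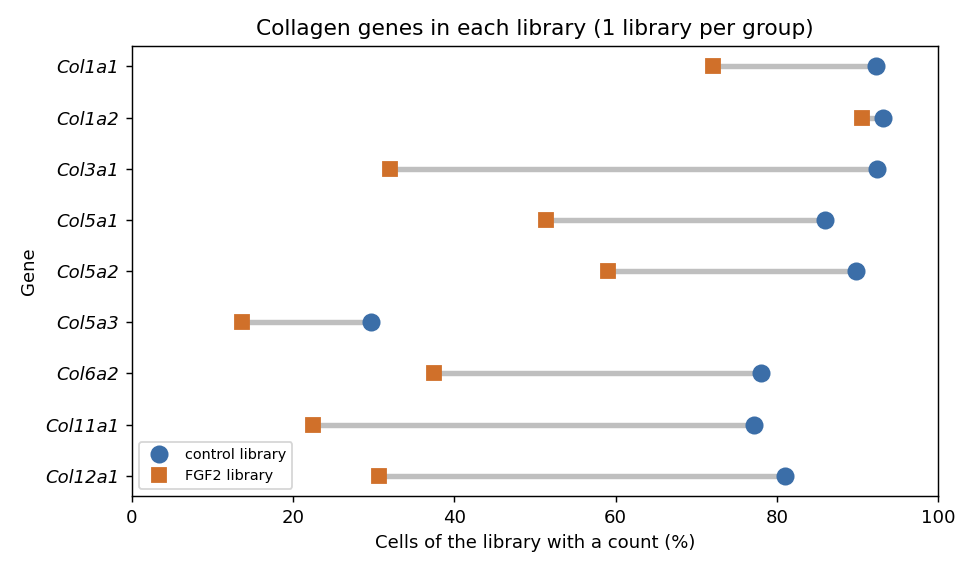
Share of cells with a count of each collagen gene, over all cells of the control library (circles) and of the FGF2 library (squares), in percent, with 1 library per group and no error bars. Col1a2 stayed near 90% in both libraries, while Col3a1, Col11a1 and Col12a1 ended near 20 to 30% in the FGF2 library.

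Col1a2, the second chain of collagen I, had a count in 93.2% of the control and 90.6% of the FGF2 cells. Col1a1, the main chain of the same molecule, had one in 92.3% and 72.1%, a ratio of 1.28. The shares of the partner chains were less than 1 percentage point apart in the control library and were wide apart in the FGF2 library.

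Col3a1 was detected as widely as collagen I in the control library, in 92.4% of the cells, and in 32.0% of the FGF2 cells, 2.88-fold fewer. It was the 63rd lowest of the 2323 ratios. Col11a1, the chain that starts fibrils in cartilage and in embryonic tissues, had the lowest ratio of the 9 genes and the 42nd lowest of all. It was found in 77.2% of the control and 22.5% of the FGF2 cells, a 3.42-fold difference. Col12a1, on the fibril surface, was at 81.0% and 30.6%, 2.64-fold lower with FGF2.

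The collagen V chains differed less. Col5a1 had a count in 86.0% and 51.4% of the cells, a 1.67-fold difference. Col5a2 had one in 89.8% and 59.0%, or 1.52-fold, just past the 1.5-fold limit and so counted as lower. Col5a3, a chain of more restricted expression, was the least detected of the 9 genes, at 29.7% of the control and 13.7% of the FGF2 cells, 2.17-fold lower.

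Col6a2 was at 78.0% of the control and 37.5% of the FGF2 cells, a 2.08-fold difference. Its partner chains, which assemble with it into collagen VI, stayed closer. Col6a1 was found in 83.5% and 70.3% of the cells and Col6a3 in 82.6% and 71.6%, both within 1.5-fold. As with collagen I, chains of 1 molecule thus had unlike ratios of detection.

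**Figure D2:**
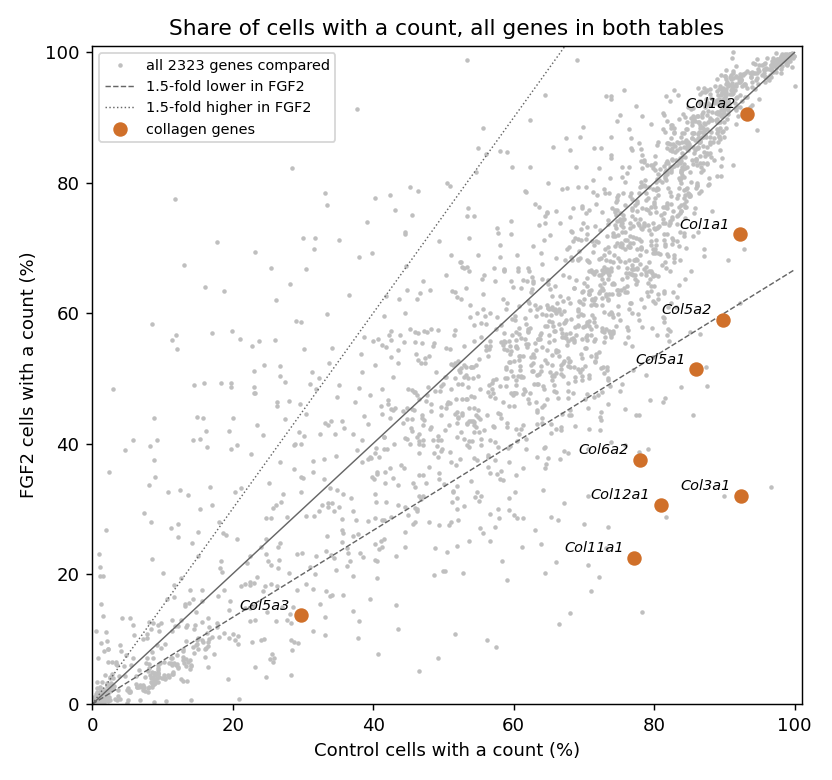
Share of cells with a count in the control library (horizontal axis, percent) and in the FGF2 library (vertical axis, percent) for each of the 2323 genes compared (grey) and the 9 collagen genes (orange). The dashed line marks 1.5-fold lower in FGF2, and Col3a1, Col11a1 and Col12a1 lie far below it in a part of the plot with few other genes.

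Other widely detected genes were also lower with FGF2, and those given here were picked after their values were seen. Adamts5, an aggrecanase gene, was found in 78.3% of the control and 14.2% of the FGF2 cells, and Acta2, the smooth muscle actin gene, in 89.9% and 31.9%. The crosslinking enzyme genes Lox and Loxl2 were at 87.6% and 48.9%, and at 81.6% and 47.0%. AY036118, a transcript linked to ribosomal RNA, was at 96.7% and 33.4%, and Lars2, a mitochondrial enzyme gene whose reads can come from ribosomal RNA, at 81.7% and 28.7%, ratios of 2.89 and 2.84 beside the 2.88 of Col3a1. The part of library quality in the collagen differences was not tested.

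A share near all cells hides differences of level, so the odds of a count, the share with a count over the share without, were also compared. These odds, here and below, are over all cells of each library, with the non-stromal clusters and the clusters of low listed shares included. On this scale 8 of the 9 genes were at least 1.5-fold lower, against 35.9% of all genes, with Col1a2 (1.43-fold) the exception. Without those clusters, Col1a2 was found in nearly all control cells and in 96.1% of the FGF2 cells. Odds were not compared there, so the exception of Col1a2 is stated for whole libraries only. The odds of Col1a1 were 4.59-fold lower with FGF2 and those of Col3a1 25.57-fold lower. The median log2 odds ratio was -2.56 for the 9 genes and -0.27 for all genes.

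The difference was also present within the stromal cells. Without the non-stromal clusters and the clusters of low listed shares, 16.4% of the control and 9.39% of the FGF2 cells, the same count of 7 of the 9 genes was at least 1.5-fold lower, against 16.4% of all genes. Col3a1 was then at 99.9% of the control and 33.1% of the FGF2 cells, Col11a1 at 89.6% and 22.6%, and Col1a1 at 99.9% and 75.4%. The marker shares that follow are over all cells of each library, not over the stromal clusters alone. Contractile markers were also lower with FGF2. Of the 6, 4 were listed in both tables and all 4 were lower, their summed shares being 282.0% in the control and 98.4% in the FGF2 library, with none at 0. The 6 fibroblast markers had summed shares of 464.0% and 483.0%, with none outside 1.5-fold. Of 7 proliferation markers 4 were also lower, with summed shares of 120.0% and 79.5%. Both macrophage markers compared, of 7, were lower (22.7% and 0.976%), as were 4 of the 5 Schwann or glial markers compared (49.4% and 50.6%, with S100b higher). Of the 3 basal epithelial markers compared 2 were higher (23.1% and 52.8%). Epithelial markers were lower in 1 and higher in 2 of the 4 compared (17.4% and 26.4%). The 1 mast cell marker and the 1 endothelial marker compared were higher, and no neutrophil marker could be compared. The part that these cell types have in the collagen differences was not tested.

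The first letters upstream of Col1a2 and Col3a1, the gene whose share differed least and one whose share was far lower with FGF2, are given next. They are the 250 bases before the transcript start on the plus strand, from RefSeq on build GRCm38.p6, at chr6:4505368-4505617 for Col1a2 and chr1:45311288-45311537 for Col3a1. Capitals mark any of 5 short motifs searched on both strands. They are the GC box GGGCGG, the CCAAT box, the TATA box as TATAAA, the AP-1 element as TGACTCA and the SMAD element as CAGACA.
Col1a2: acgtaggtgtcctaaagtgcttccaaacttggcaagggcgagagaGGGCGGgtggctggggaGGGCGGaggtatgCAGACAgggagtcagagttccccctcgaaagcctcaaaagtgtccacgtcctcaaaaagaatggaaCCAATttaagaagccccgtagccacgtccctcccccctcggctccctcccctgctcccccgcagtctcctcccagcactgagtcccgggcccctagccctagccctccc
Col3a1: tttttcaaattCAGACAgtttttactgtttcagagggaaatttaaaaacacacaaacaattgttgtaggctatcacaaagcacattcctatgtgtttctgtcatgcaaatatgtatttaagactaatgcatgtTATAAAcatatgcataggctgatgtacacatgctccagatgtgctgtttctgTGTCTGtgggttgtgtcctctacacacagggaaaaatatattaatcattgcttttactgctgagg
The Col1a2 window holds GGGCGG, the GC box bound by Sp1, in 2 places, CAGACA, the letters of a SMAD element, at 1 place, and CCAAT, the box bound by NF-Y, from 109 to 105 bases before the start. The Col3a1 window holds CAGACA on each strand and TATAAA from 117 to 112 bases before the start, and none of the other letters. Over 32851 promoter windows of the same length, the GC box letters are in 32.7%, the CCAAT box in 33.8%, the SMAD letters in 17.1%, the TATA letters in 12.4% and the AP-1 letters in 4.46%. These matches describe the letters and not bound sites, and no factor was measured. The reference table held upstream windows for 6 of the 9 genes.

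For collagen I and III the stromal clusters of the control library differed in level while nearly every cell had a count. Clusters 1, 7 and 8 were not listed for Col1a1, and by the recovered share their cells had a count of it in 99.8% on average. Col1a1 reached levels of 1.31 in cluster 0 (led by Fbn2, Vegfd and Dlk1), 1.42 in cluster 3 (Thbs1, Vegfd and Ptx3), 1.41 in cluster 5 (Acta2, Actg2 and Tagln) and 1.44 in cluster 6 (Mgp, Pmepa1 and Timp1). Col1a2 followed with 1.25, 1.33, 1.27 and 1.29 in the same clusters. In cluster 2, led by Spp1, Cxcl13 and Saa3, both were low, at 0.58 and 0.71. A share of 100% for both genes in cluster 2, by the authors' deposited table, hid this difference.

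Each of these clusters held its own set of the 9 genes. Cluster 6, led by Mgp, the gene of matrix Gla protein, had 6 of the 9 listed higher, against 3.24% of the 4419 genes in the control table. These were Col1a1, Col1a2, Col5a1 (level 1.26), Col5a2 (1.39), Col5a3 (1.73) and Col6a2 (1.26). The authors' deposited table gives Col5a3 in 73.3% of cluster 6 and 26.4% of the other cells, the widest gap among the higher entries of the 9 genes there. Col5a3 was also listed higher in cluster 12, led by Ccl2, Mt1 and Hmox1, for which Mgp was not listed. It was in 58.5% of those cells against 29.5% of the others, a level of 1.45.

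Cluster 0 had 5 of the 9 listed higher, against 1.24% of the genes, with Col3a1 (1.45) first and Col11a1 (1.27) listed higher in no other control cluster. Col11a1 had a count in 96.7% of cluster 0 and 73.2% of the other cells, per the authors' deposited table. Cluster 3, with 3 of 6 contractile markers listed higher, had 4 of the 9 collagen genes listed higher, against 3.24%, among them Col3a1 and, at a level of 1.41, Col12a1. The contractile-like cluster 5, with 6 of 6 contractile markers listed higher, had 3 of the 9 listed higher, against 3.69%.

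Col3a1 and Col12a1 parted in cluster 5. There Col12a1 had a level of 1.31 and Col1a1 of 1.41, while Col3a1 was listed lower, at 0.72. Col3a1 was instead high in cluster 1 (1.29), a fibroblast-like cluster with 4 of 6 markers and led by Crabp1, Mmp3 and Cpxm1, for which none of the other 8 genes was listed.

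Cluster 2, also fibroblast-like by 4 of 6 markers, had 5 of the 9 listed lower, against 3.24% of the genes in that direction. Col1a1, Col1a2, Col3a1 (0.75), Col5a2 (0.69) and Col11a1 (0.78) were the lower ones. Col6a2 went the other way, at 1.24, and cluster 2 shared this with cluster 6. Col6a1 and Col6a3, the other chains of collagen VI, were also listed higher in cluster 2, with 97.6% and 97.4% of its cells in the authors' deposited table.

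**Figure D3:**
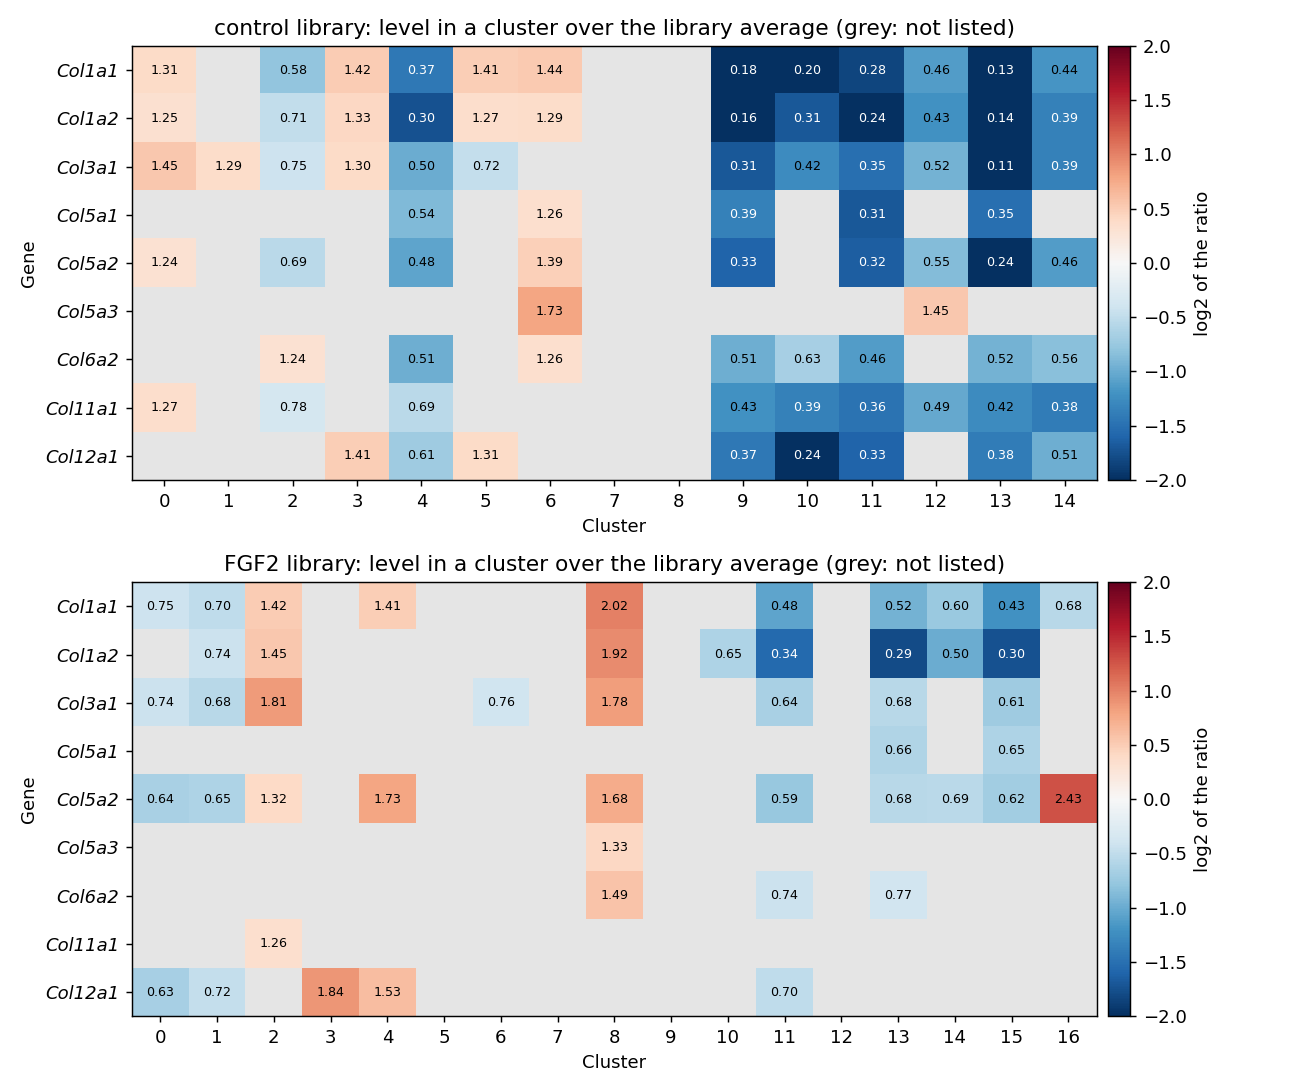
Level of each collagen gene in each cluster over the average of its library, both with an offset of 1, for the control library (top) and the FGF2 library (bottom). The colour shows the log2 of the printed ratio, and grey means that the gene is not listed for the cluster. In both libraries the Mgp-led cluster (control 6, FGF2 8) has 6 of the 9 genes in red.

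Collagen counts were also found in control cells that should make little of it. In cluster 11, macrophage-like by 6 of 7 markers, 8 of the 9 genes were listed lower, against 22.8% of the genes. By the authors' deposited table, 71.7% of its cells had a count of Col1a2, 66.0% of Col1a1, 56.6% of Col3a1 and 39.6% of Col5a2. That table gives lower shares there for Col12a1 (24.5%), Col5a1 (22.6%) and Col11a1 (18.9%), and Col6a2 was lowest of the 8. The levels were 0.24 to 0.46. The source of these counts was not tested, and the depth of the cells is unknown. Cluster 4, led by AY036118, Gm42418 and Gm26917, also had 8 of the 9 listed lower, against 9.01%. Levels ranged from 0.30 for Col1a2 to 0.69 for Col11a1. Its ratios were higher for 5 of 6 contractile markers, yet each of the 5 had a count in fewer of its cells than of the others. Acta2 was at 83.2% against 90.7%, and Myl9 at 41.6% against 75.8%. The median share of the genes listed for cluster 4 was 10.9%, against 84.8% in the other cells.

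In the Schwann or glial-like control cluster 10 Col3a1 had a count in 96.6% of the cells and Col12a1 in 20.7%, as the authors' deposited table lists them. The levels were 0.42 and 0.24. The lowest level of collagen I and III was in the basal epithelial-like cluster 13, at 0.13 for Col1a1, 0.14 for Col1a2 and 0.11 for Col3a1. Between the highest and the lowest listed cluster, the level of Col3a1 spanned 12.71-fold, that of Col1a1 10.76-fold and that of Col6a2 2.75-fold. The offset of 1 narrows these spans most for genes with low averages.

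Among the listed clusters of the FGF2 library, cluster 8 had the highest level of Col1a1, Col1a2 and Col6a2, and Col5a3 was listed for cluster 8 alone. Other clusters had the highest listed level of Col3a1, Col5a2, Col11a1 and Col12a1. Col5a1 was listed only for clusters 13 and 15, lower in both, so its highest cluster is unknown. Cluster 8, led by Mgp, Pla1a and Ccl8 and fibroblast-like by 3 of 6 markers, held 5.55% of the cells. It had 6 of the 9 listed higher, against 3.63% of the 3058 genes in the FGF2 table. Col1a1 had a level of 2.02 there, Col1a2 of 1.92, Col3a1 of 1.78, Col5a2 of 1.68, Col6a2 of 1.49 and Col5a3 of 1.33. As in control cluster 6, Mgp was the leading gene and Col5a3 was among the higher ones. Col1a1 and Col1a2 were themselves among the 10 genes with the highest ratios in cluster 8. Cluster 7, also fibroblast-like by 3 of 6 markers, had none of the 9 listed in either direction, with 177 genes listed higher and 132 lower.

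Shares of the Mgp-led clusters, side by side in the authors' deposited table, show what remained different. Col1a2 was in 100% of control cluster 6 and 99.1% of FGF2 cluster 8, and Col1a1 in 100% and 94.8%. Col5a2 was in 99.7% and 84.2%, Col6a2 in 95.3% and 65.5%, and Col5a3 in 73.3% and 38.7% of these cells in the authors' deposited table. Col3a1 was in 52.4% of FGF2 cluster 8, its highest listed share in that library, by the authors' deposited table. In the control library Col3a1 was not listed for cluster 6, and the clusters not listed for it had a mean share of 99.7%. The clusters were drawn separately in each library, so they need not hold the same cells.

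Cluster 2, led by Igfbp3, Lpl and Clu, had 5 of the 9 listed higher, against 4.12% of the genes. Col3a1 had its highest FGF2 level there, 1.81, and Col1a2 (1.45), Col1a1 (1.42) and Col5a2 (1.32) followed. Col11a1 was listed for no other FGF2 cluster, at 29.7% of cluster 2 against 21.6% of the other cells in the authors' deposited table, a level of 1.26.

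Cluster 4, contractile-like by 4 of 6 markers, had 3 of the 9 listed higher, against 6.44%. These were Col5a2 (1.73), Col12a1 (1.53) and Col1a1 (1.41), and Col3a1 was not listed. Cluster 13, also with 4 of 6 contractile markers, had none of the 9 listed higher and 6 lower, against 956 of the 3058 genes lower. It is among the clusters of low listed shares, with a median listed share of 12.0% against 66.5% in the other cells. Cluster 3, led by Ero1l, Il33 and Fam162a, was listed higher for Col12a1 at 1.84, the highest level of this gene, and for none of the other 8. In the authors' deposited table Col12a1 had a count in 60.8% of FGF2 cluster 4 and 55.9% of cluster 3, against 98.9% of the contractile-like control cluster 5.

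Both of the largest clusters were listed lower for several genes. Cluster 0, led by Nptx1, Cdkn2a and Ctsl, had 4 of the 9 listed lower, against 4.68% of the genes, and cluster 1, led by Cck, Odc1 and Tac1, had 5, against 2.26%. They held 16.4% and 14.1% of the FGF2 cells. Col3a1 was at levels of 0.74 and 0.68, Col5a2 at 0.64 and 0.65 and Col12a1 at 0.63 and 0.72. Col12a1 had a count in 9.0% of cluster 0 and 18.4% of cluster 1 in the authors' deposited table.

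**Figure D4:**
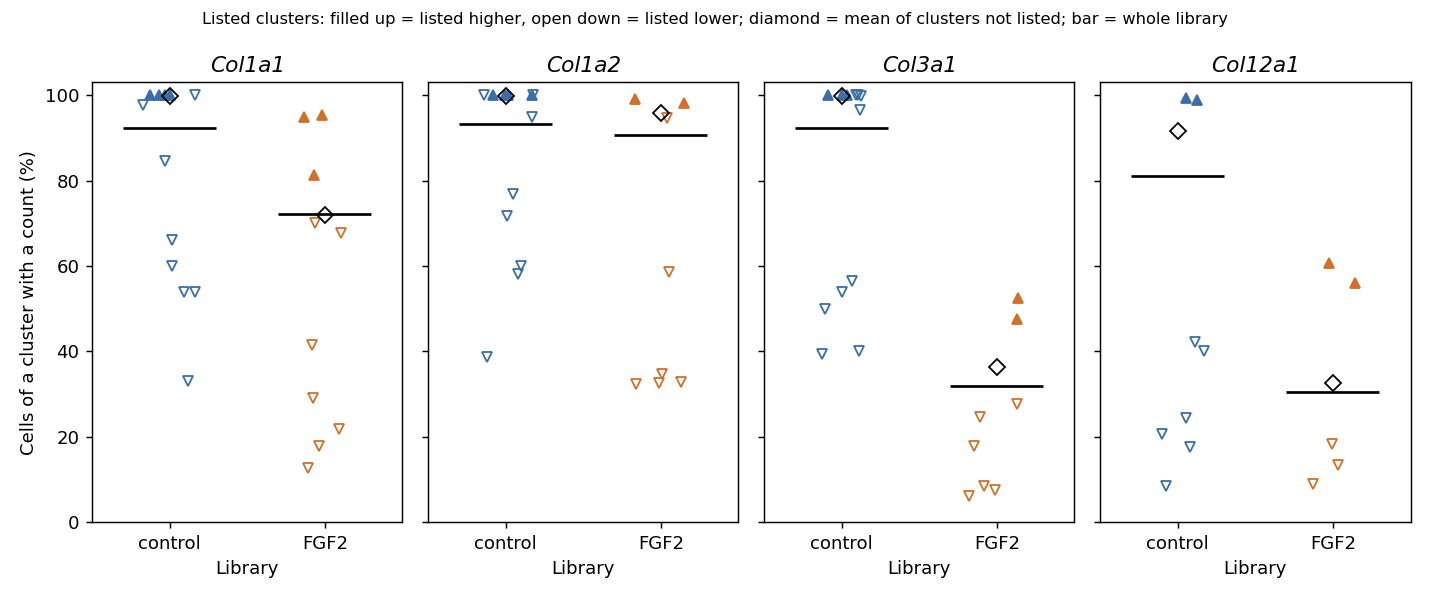
Share of cells with a count (percent) in each listed cluster for Col1a1, Col1a2, Col3a1 and Col12a1 in the control (blue) and FGF2 (orange) libraries. Filled triangles are clusters listed higher, open ones clusters listed lower, the diamond is the mean of the clusters not listed, and the bar is the whole library. Col3a1 reached at most 52.4% in a listed FGF2 cluster. Its unlisted clusters averaged 36.4% in the FGF2 library and 99.7% in the control library.

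Non-stromal cells of the FGF2 library also had collagen counts. In cluster 15, mast cell-like by 6 of 6 markers, 5 of the 9 genes were listed lower, against 33.5% of the genes. There the authors' deposited table gives Col1a2 in 32.8%, Col1a1 in 21.9%, Col5a2 in 20.3%, Col5a1 in 7.8% and Col3a1 in 6.2% of the cells. The share of Col3a1 in all FGF2 cells, 32.0%, lay above its share in the mast cell-like cells and below the 56.6% of the control macrophage-like cells.

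Col5a2 and Col1a1 were the genes listed for the Schwann or glial-like FGF2 cluster 16, so named by 4 of 7 markers, and they went opposite ways. Col5a2 was in 67.7% of the cells against 59.0% of the others, and Col1a1 in 29.0% against 72.2%, by the authors' deposited table. The level of Col5a2 there, 2.43, was its highest in the FGF2 library. The cluster held 0.307% of the FGF2 cells, and the median share of the genes listed for it was 16.1%, against 62.7% in the other cells. Col5a2 was not listed for the Schwann or glial-like control cluster 10. In the integrated table, the Schwann or glial-like cluster 12 was listed higher for Col5a2, with 80.0% of its cells in the authors' deposited table. Its cells come from the same libraries, and it has the same leading genes, Apod, Atf3 and Postn, as FGF2 cluster 16. This is thus not an independent repeat.

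The integrated table compares clusters drawn over both libraries. Whether its averages are of integrated or of plain values is unstated, so its ratios are given as listed and no difference of expression is read from them. Col5a1 and Col6a2 were not listed in it. Cluster 10, led by Mgp, Pmepa1 and Slc20a1, had 5 of the 9 genes listed higher, against 10.1% of its 1208 genes. It held 1.77% of the cells. Mgp and Col5a3 were again both listed higher, but the cells are those of the same libraries, so this is not an independent repeat. Col5a3 had a count in 79.1% of cluster 10 and 22.9% of the other cells in the authors' deposited table. The contractile-like cluster 2 had 5 listed higher, against 11.3%, Col11a1 and Col12a1 among them. Cluster 3, fibroblast-like by 4 of 6 markers, had 4 listed higher, against 5.05%, Col3a1 among them.

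Ratio and share went apart in the smallest integrated cluster. In the endothelial-like cluster 13, 40.6% of the cells had a count of Col1a1 against 78.6% of the others, yet the authors' deposited table lists it with a log ratio of 0.47, that is, higher. Col3a1 was in the same position there, with 15.6% against 48.9% and a log ratio of 0.29 in the authors' deposited table.

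Genes with the most similar patterns over clusters were sought for Col1a1, Col3a1 and Col12a1 by Pearson's r of the log ratios over at least 6 clusters listed for both. In the control library, the 5 nearest of 365 genes to Col1a1 were Col5a2 (r = 0.983 over 9 clusters), Aldh1a2 (0.982), Col1a2 (0.977 over 12 clusters), Itga5 (0.977) and Fbn1 (0.976 over 10 clusters). Those nearest to Col3a1 were Gpc6 (0.973), Lgals1, Col5a2 (0.958), Dkk3 and Vcan, and those nearest to Col12a1 were Sparc (0.998), Prss23, Akap12, Ccdc80 and Adamts5. In the FGF2 library, Isg15 (0.987), Col6a1 (0.979), Ppic, Col1a2 (0.975) and Pdgfrb were nearest to Col1a1, and Cxcl12 (0.986), Ccdc80, Col5a2 (0.975), Lum and Lpl to Col3a1. No gene shared enough clusters with Col12a1 there. Similarity did not hold for all of the 9 genes. In the control library, r of Col12a1 with other members ran from -0.415 (Col6a2, 6 clusters) to 0.931 (Col1a1, 8 clusters). Log ratios under 0.25 in size are not listed, so r is taken over values without the middle of their range. The values of r describe clusters of 1 library, which share its depth and its few non-stromal clusters.

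Assembly of fibrils needs enzymes, chaperones and partner proteins, and the count of those that differed depends on the scale. Of 29 chain processing genes 20 could be compared, 2 of them lower and none higher, with a median log2 ratio of -0.36. On the odds scale 13 were lower and 2 higher, against 35.9% of all genes lower. The share of all genes higher by odds was not counted, so counts of higher odds, here and below, have no background. The 2 lower by the ratio of shares were Lox and Loxl2, given above, which crosslink collagen. Serpinh1, the collagen chaperone HSP47, was found in 91.5% of the control and 94.2% of the FGF2 cells, and P4hb, a subunit of prolyl hydroxylase, in 87.6% and 85.5%. Plod2, which hydroxylates lysines used in crosslinks, was at 81.2% and 59.4%, Pcolce, an enhancer of procollagen cleavage, at 83.5% and 64.3%, and Bmp1, which cleaves procollagen, at 71.0% and 53.4%. Those 3 lay within 1.5-fold.

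Of 16 fibril-associated matrix genes 11 were compared, with 2 lower, none higher and a median of 0.06. By odds 4 were lower, against 35.9% of all genes, and 5 were higher, without a background. Prelp, a small proteoglycan, was found in 46.6% and 5.1% of the cells, and Postn, which binds collagen I, in 71.0% and 17.3%. Dcn, which coats fibrils, was at 84.8% and 91.7%, and Bgn at 92.6% and 96.6%. The 4 compared collagen receptors and uptake genes of a list of 9 were within the rule, and 2 were lower by odds.

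Among 7 collagen-degrading proteases 5 were compared and 2 were higher with FGF2, with a median of 0.25. By odds 3 were higher, without a background, and 1 was lower, against 35.9% of all genes. Mmp13, a collagenase, was found in 14.3% and 40.6% of the cells, and Mmp3, which activates collagenases, in 53.3% and 98.9%. The other 3 lay within the rule.

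Other collagen chains differed in both directions. Of 19 in all, 12 were compared, with 1 lower, 3 higher and a median of -0.24. By odds 8 were lower, against 35.9% of all genes, and 4 were higher, without a background. Col4a5, a basement membrane chain, was at 28.3% and 9.91%. Col6a6, a chain of collagen VI, was at 13.7% and 32.1% and was higher, as were the rarely detected Col9a1 and Col9a3, at most 2.15% in either library. Another 7 chains, Col14a1 at 21.4% of the control cells among them, were listed in the control table alone. A gene missing from a table may still be detected.

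**Figure D5:**
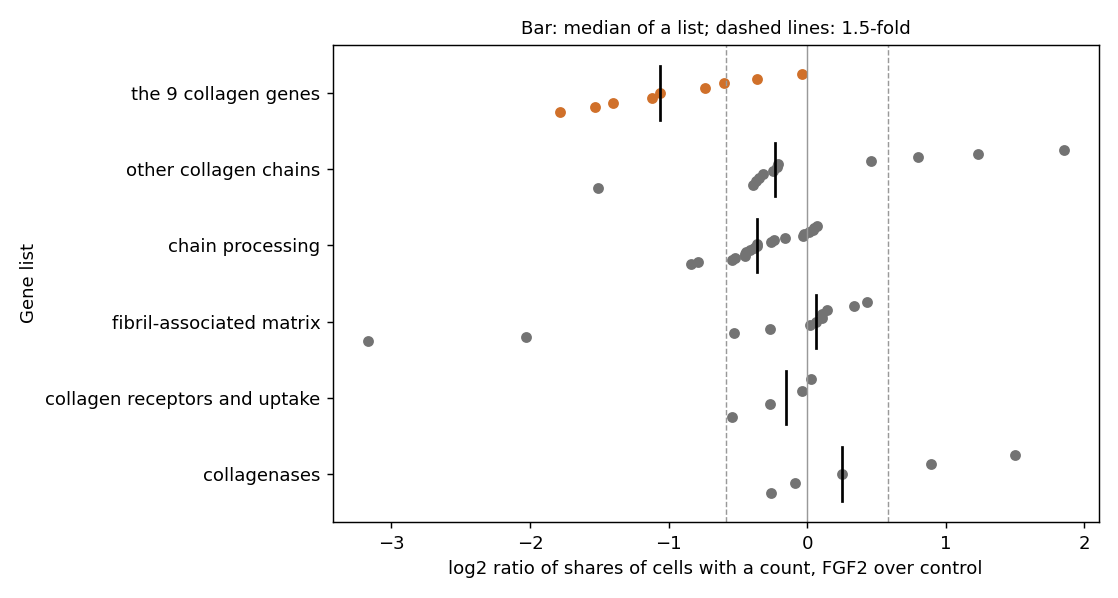
Log2 ratio of the share of cells with a count, FGF2 over control, for the 9 collagen genes and for the genes of 5 lists of collagen biology that could be compared. Each point is a gene, bars are medians and dashed lines mark 1.5-fold. The 9 genes have a median of -1.06, and the other medians lie between -0.36 and 0.25.

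On the genome, Col3a1 (chr1:45311538-45349706) and Col5a2 (chr1:45374331-45503282) are neighbours on opposite strands of chromosome 1. The others are Col5a1 (chr2:27886381-28039510), Col11a1 (chr3:114030479-114220756), Col1a2 (chr6:4505618-4541543), Col5a3 (chr9:20770050-20815117), Col12a1 (chr9:79598987-79721141), Col6a2 (chr10:76595756-76623630) and Col1a1 (chr11:94936224-94953042), on GRCm38.p6. Annotated genes on the other strand overlap Col5a1, Col5a3 and Col12a1, and genes on the same strand overlap Col1a2 (Gm43921), Col3a1 (Gm47302) and Col5a2 (Gm38211). How reads in the overlapping stretches were counted is unstated in what was used here. The part of such reads in the counts of these 6 genes was not tested.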

How the data were processed

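Single cells of 1 control and 1 FGF2 organoid library were captured on the 10x Chromium system, and Cell Ranger 4.0 and the build mm10 were used, per the submitters' processing notes. Cell filters, doublet treatment, normalization and clustering are unstated. The authors deposited, per cluster, natural log ratios of averages, fractions of cells with a value above 0 and p-values over cells. P-values over cells of 1 library are left out. The natural base was checked with genes whose listed clusters hold no cell with a count. The median coefficient of variation of the average in the other cells was 0.00169% (8 control genes) and 0.003% (5 FGF2 genes), against 0.0488% and 0.0334% with base 2.

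Listed log ratios are 0.25 or more in size, and the larger share of an entry starts at 25.1%, or 25.3% for the integrated clusters. The part of the cells in each cluster was solved by least squares from genes with 2 or more entries, which then gives every gene's share of the library. Residuals (root mean square, percentage points) were 0.0238 for control and 0.0242 for FGF2. Scripts ran in Python 3.11.15 and were tested on simulated data. Ratios carry a pseudocount of 0.1 percentage points, and odds an offset of 0.001 on the fractions. A share over stromal clusters sets an unlisted cluster at the mean of the unlisted ones.

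The 9 genes and all lists were chosen with earlier results of these data known. All 9 genes are named. Of the other lists, genes past 1.5-fold are named, with a selection of the genes that have a direct role in collagen I, III or V. The nearest genes are the 5 with the highest r. Clusters are called "X-like" from at least 3 markers listed higher, taken from 10 marker lists. Alternatives covered the pseudocount, the cluster parts, the clusters included, the size rule and the log base.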

Additional observations from a re-analysis of the deposited data

How the results depend on the processing

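Of 54 ratios of the 9 genes under 6 alternatives, 50 kept their direction and their side of the 1.5-fold rule, 4 were no longer past it and none reversed. The 4 were Col5a2, Col6a2, Col11a1 and Col12a1 with the plain mean of the listed cluster shares, which leaves out unlisted clusters and weights small clusters like large ones. The median log2 ratio was then -0.53 and 3 of the 9 genes were lower, against a median of -0.28 and 36.5% lower over all genes, so the count was not above the background in this setting. With the log ratio read as base 2, the median level of the 6 genes in FGF2 cluster 8 was 1.47 in place of 1.73. A limit to genes found in at least 75% of the control cells, chosen after seeing the data, is not read, because it keeps genes by the group in which they are high. The depth per cell is unknown and limits what any share can show. No paired analysis was possible because each group has 1 library, and leaving out a library would leave no comparison.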
